A study of Mus musculus with 6 samples.

Results

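The cultures called iSSC in the labels, described there as an intermediate state of mouse spermatogonial stem cells, were set against the average of the 2 states on either side of them. The iSSC mean of each gene was compared with the midpoint between the mean of the unipotent germ-line stem cells (SSC) and the mean of the multipotent cells (mSSC). All 6 arrays of the series entered the comparison, 2 per state. All cells came from testes of male ICR mice aged 3 to 5 days and were grown in serum-free spermatogonial (GS) medium. Clumps taken at passages 0 to 1 or 9 to 10 were moved to feeder layers of embryonic fibroblasts (MEF) treated with mitomycin. Colonies that flattened or came to look like embryonic stem cells either stayed in GS medium or were moved to serum-free KSR-mES medium. Colonies were picked by shape, and which passage and medium each array stands for is not stated. Nor do the labels say whether the 2 arrays of a state came from separate cultures. P-values here therefore reflect array-to-array spread, which may be technical. RNA of whole picked colonies can include feeder and testicular somatic cells.

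Spermatogonial stem cells sustain sperm production in the testis by self-renewal and by supplying differentiating spermatogonia. In culture they depend on Gdnf, which signals through the receptor Ret and its co-receptor Gfra1. Cultured spermatogonial cells can also give rise to colonies that resemble embryonic stem cells and express pluripotency factors such as Nanog. Whether a state labelled as intermediate has features of its own, or only mixes those of its neighbours, cannot be read from the midpoint alone. The position of the iSSC arrays relative to both other states is therefore given as well.

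One probe set stood for each gene, the brightest of those with exactly 1 symbol, which gave 18194 genes. Values are log2 RMA intensities. Every difference below is the iSSC mean minus the midpoint on this log2 scale, ± SE, unless another is named, and adjusted p-values come from limma over all genes. The array medians lay between 5.83 and 5.93 and the lower quartiles between 4.23 and 4.38, so values near 4 are at the dim end of an array. No detection calls were used. The median SD over genes was 0.139 in iSSC, 0.247 in SSC and 0.206 in mSSC. The 2 iSSC arrays correlated at r = 0.990 across genes, against 0.949 to 0.970 between iSSC and SSC arrays and 0.904 to 0.919 between iSSC and mSSC arrays. The 3′ minus 5′ signal of the beta-actin control, a sign of RNA quality, was 0.47 and 0.30 in iSSC and ran from 0.12 to 0.89 in the other arrays. That of Gapdh lay between -0.35 and 0.25 on all arrays. That of pyruvate carboxylase was 1.12 and 1.28 in iSSC, 2.73 in SSC replicate 1 and 0.88 to 1.32 elsewhere. The 18S rRNA signal split by replicate number, at 2.23 in SSC, 2.36 in iSSC and 2.42 in mSSC on replicate 1. On replicate 2 it was 0.41, 1.03 and 1.03. Beta-actin was also higher on replicate 1 than on replicate 2 in each state. The labels do not say what the replicate numbers stand for.

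At an adjusted p under 0.05, 1222 genes differed between iSSC and the midpoint, 6.72% of those tested. Of these, 542 were higher in iSSC (2.98%) and 680 were lower (3.74%). A difference from the midpoint does not by itself set iSSC apart, since a gene that iSSC shares with SSC and that changes in mSSC also differs from the midpoint. Called genes were therefore divided by where the iSSC arrays lay. In 968 genes, 79.2% of those called, both iSSC arrays lay outside all 4 others. They lay above them in 421 genes (2.31% of all genes) and below them in 547 (3.01%). In 130 genes (10.6% of the calls) the iSSC mean lay between the other means, nearer to SSC in 117 and nearer to mSSC in 13. In the other 124 the iSSC mean lay outside but single arrays overlapped. Whatever the test, both iSSC arrays lay above all others in 13.8% of genes and below them in 8.13%.

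The genes above all other arrays mostly lay close to SSC. Their median distance was 0.86 from SSC and 1.93 from mSSC, and SSC was the nearer state for 390 of the 421. Across all genes the iSSC arrays also correlated more with SSC (0.949 to 0.970) than with mSSC (0.904 to 0.919). The share of all genes nearer to SSC was not counted. The genes below all other arrays lay about as far from both states, at a median of -1.53 from SSC and -1.79 from mSSC. SSC was the nearer state for 338 of these 547 genes and mSSC for 209. An iSSC mean at least 2-fold away from the nearer state was found in 159 genes above and 354 genes below. In the strictest class, 199 genes were called in the same direction against each state on its own (1.09%), 27 higher in iSSC (0.148%) and 172 lower (0.945%). All 199 lay outside all 4 other arrays. They were drawn from 381 genes called against SSC (2.09%, of which 41 higher, 0.225%, and 340 lower, 1.87%) and 3117 called against mSSC (17.1%, of which 1747 higher, 9.60%, and 1370 lower, 7.53%).

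**Figure D1:**
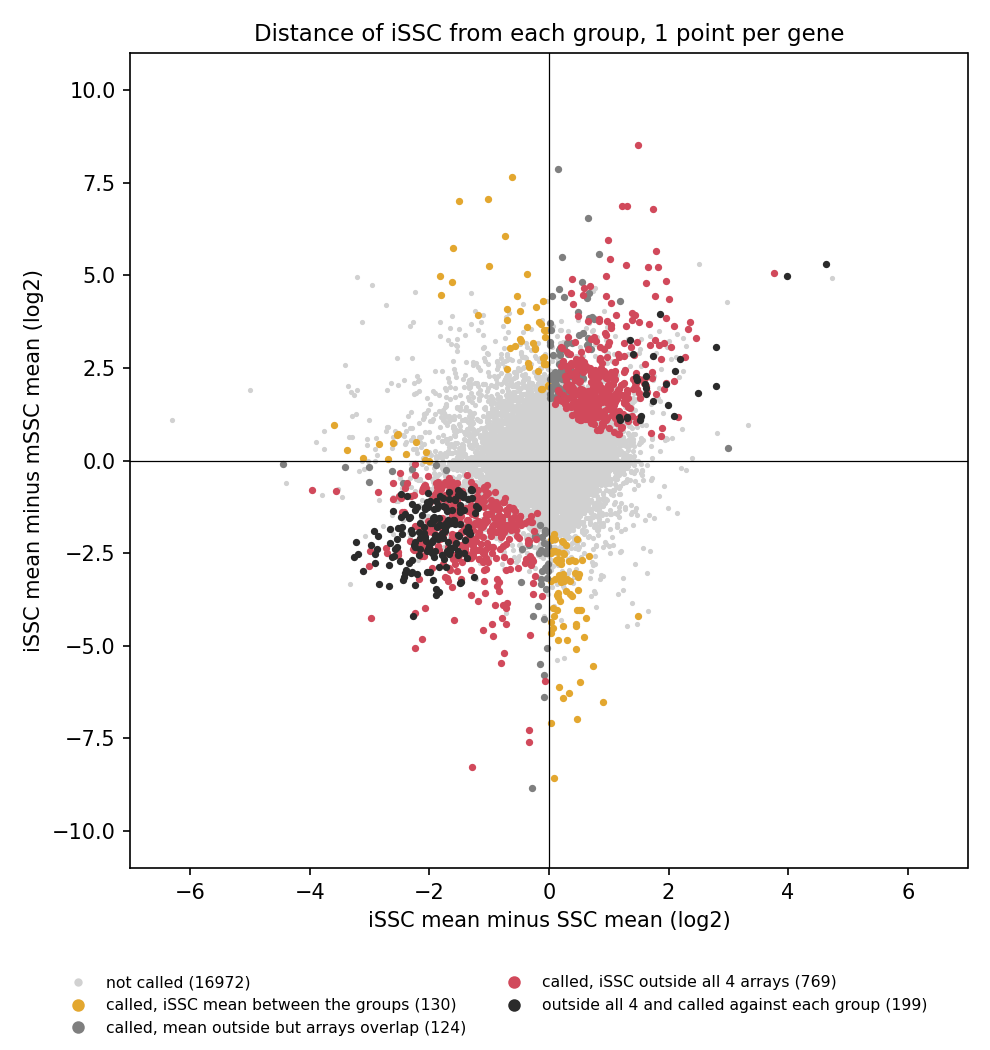
Distance of the iSSC mean from the SSC mean (horizontal axis, log2) and from the mSSC mean (vertical axis, log2), 1 point for each of 18194 genes, coloured by class. The 172 genes lower than each state form a cloud in the lower left, the 27 higher than each are scattered in the upper right, and genes shared with SSC lie along the vertical line at 0.

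These counts rest on both iSSC arrays. With either one left out, limma called 0 genes (2080 and 2485 genes at an unadjusted p under 0.05), although all 1222 genes kept their direction and had an unadjusted p under 0.05. The class of 199 genes called against each state also fell to 0 without SSC replicate 1 (4321 genes against the midpoint at an unadjusted p under 0.05), the array with the highest pyruvate carboxylase 3′ minus 5′ signal, whose part in this was not tested. That class was 14 with the mean of each gene's probe sets and 0 with the dimmest probe set (3027 genes against the midpoint at an unadjusted p under 0.05). These limits hold for every call named below. Averaging SSC and mSSC on the linear scale, in which the brighter state counts more, moved the difference of 175 called genes by over 1.5 times, 25 of them outside all 4 arrays and 0 of them among the 199.

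Genes with both iSSC arrays above all others were ranked by their difference from the midpoint, and the 15 largest are given here (Hoxb6 with the other Hox genes) with their distance from the nearer state where it was small. Afp, which encodes the fetal plasma protein alpha-fetoprotein, measured 10.40 and 10.99 in SSC, 12.61 and 11.77 in iSSC and 3.74 and 3.63 in mSSC. Its difference from the midpoint was 5.00 ± 0.30 (adjusted p = 0.0059, limma). Both iSSC arrays were the highest, but the step from SSC was 1.49 ± 0.35 (adjusted p = 0.103) and that from mSSC 8.51 ± 0.35, so most of the difference is the low mSSC level. Other probe sets of Afp had the same sign in 3 of 4 cases.

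Prl8a9 and Prl8a2, which encode hormones of the placental prolactin family, stood apart from both states. Prl8a9 measured 5.24 and 3.31 in SSC, 8.71 and 9.11 in iSSC and 3.57 and 3.64 in mSSC, a difference of 4.97 ± 0.51 (adjusted p = 0.00928, limma). Prl8a2 measured 6.11 and 4.00 in SSC, 9.50 and 8.57 in iSSC and 3.84 and 4.28 in mSSC, a difference of 4.48 ± 0.59 (adjusted p = 0.014). Both were bright in iSSC alone and near the dim end of the array in mSSC and in SSC replicate 2. Prl8a9 was higher in iSSC than in SSC by 4.63 ± 0.58 (adjusted p = 0.0287) and than in mSSC by 5.30 ± 0.58 (adjusted p = 0.00364). They were the 2 called genes among 17 measured members of the family, whose median difference was 0.11 against 0.05 over all genes. Of all genes 2.98% were called higher. Of 17 markers of trophoblast, the placental lineage that expresses many members of this family, 0 were called (11 with a positive difference, list median 0.11), and Tpbpa, a spongiotrophoblast marker, stayed between 3.4 and 3.7 on all 6 arrays. A positive difference was found in 56.1% of all genes.

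Ctla2a and Ctla2b, neighbouring genes for small cysteine protease inhibitors related to cathepsin propeptides, were also highest in iSSC. Ctla2a measured 11.18 and 10.83 in SSC, 12.65 and 12.83 in iSSC and 4.71 and 7.19 in mSSC. Ctla2b measured 10.82 and 9.44 in SSC, 11.31 and 11.39 in iSSC and 3.96 and 5.01 in mSSC. The differences were 4.26 ± 0.63 (adjusted p = 0.0183) and 4.04 ± 0.45 (adjusted p = 0.0102), and neither gene was called against SSC (adjusted p = 0.299 and 0.311). The sequences of these genes are alike, as are those of the prolactin genes, and probes may not separate near copies.

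The promoters of 3 of these 4 genes were in the RefSeq table used here and are shown because these genes are among the 15 with the largest positive difference and belong to 2 families, although Ctla2a and Ctla2b were bright in SSC and Prl8a9 was not. Each is the 300-base window around the annotated gene start, in GRCm38.p6 and on the minus strand, with CG dinucleotides in capitals. The windows are chr13:27564557-27564856 for Prl8a9, chr13:60936576-60936875 for Ctla2a and chr13:60897398-60897697 for Ctla2b. Prl8a2 is named only.
Prl8a9: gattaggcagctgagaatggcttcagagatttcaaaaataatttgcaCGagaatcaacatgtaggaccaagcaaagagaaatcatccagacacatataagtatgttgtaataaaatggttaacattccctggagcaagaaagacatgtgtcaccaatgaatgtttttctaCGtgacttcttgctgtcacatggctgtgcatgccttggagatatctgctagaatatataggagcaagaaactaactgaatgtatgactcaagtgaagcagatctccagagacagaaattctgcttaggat
Ctla2a: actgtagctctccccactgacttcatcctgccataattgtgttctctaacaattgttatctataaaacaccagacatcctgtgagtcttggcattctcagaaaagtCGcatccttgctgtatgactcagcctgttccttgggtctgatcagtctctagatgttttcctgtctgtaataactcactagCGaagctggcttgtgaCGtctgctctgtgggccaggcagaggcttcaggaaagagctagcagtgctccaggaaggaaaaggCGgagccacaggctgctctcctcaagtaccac
Ctla2b: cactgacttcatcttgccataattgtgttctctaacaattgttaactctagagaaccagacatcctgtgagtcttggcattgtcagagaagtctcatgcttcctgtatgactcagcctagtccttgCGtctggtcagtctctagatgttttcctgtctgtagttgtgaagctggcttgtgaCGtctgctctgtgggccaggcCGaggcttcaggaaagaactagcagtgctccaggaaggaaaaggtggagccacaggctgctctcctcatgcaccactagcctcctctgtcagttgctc

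These windows are poor in CG, with 2 in Prl8a9, 4 in Ctla2a and 3 in Ctla2b, against a median of 17 over 14453 measured genes with a promoter in the table. Each holds the letters TGANTCA, searched on both strands, which spell the consensus bound by AP-1 factors and occur in 6.33% of these promoters and in 8.33% of those of genes above all other arrays. TATAAA was found in the Ctla2a window and in 9.87% of all. The stretches around TGANTCA in Ctla2a and Ctla2b are alike, so they do not count as separate matches. These 3 windows were picked by rank and measure no enrichment. A match of letters is a description and does not show that a factor binds there.

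Further genes of the highest set included Serpinb2, a protease inhibitor also called plasminogen activator inhibitor type 2, at 6.76 and 5.41 in SSC, 9.77 and 9.93 in iSSC and 3.51 and 6.07 in mSSC (difference 4.41 ± 0.72). Foxf1, a forkhead factor of lateral mesoderm, measured 7.76 and 6.78 in SSC, 9.59 and 8.88 in iSSC and 4.61 and 4.16 in mSSC (3.41 ± 0.35). In both genes the iSSC arrays lay clear of the other 4, but neither gene was called against each state on its own. Zic1, a zinc finger factor of the neural plate, measured 8.61 and 10.60 in SSC and 10.76 and 11.07 in iSSC, so its iSSC arrays lay only just above SSC replicate 2, while mSSC was at 3.50 and 4.56 (4.10 ± 0.58). Cryab, a small heat shock protein and lens crystallin, differed by 3.52 ± 0.50, Fabp4, a fatty acid carrier of fat cells and macrophages, by 3.44 ± 0.50, and Serpina3n, a serine protease inhibitor, by 3.28 ± 0.54. Mageb3, of the testis-expressed Mage family, differed by 3.72 ± 0.50, Aldh1a7, an aldehyde dehydrogenase, by 3.20 ± 0.45 and 4930550L24Rik by 3.23 ± 0.35. With the linear-scale average the differences were 2.51 for Afp, 2.67 for Ctla2a, 1.97 for Zic1, 2.03 for Ctla2b, 2.48 for Mageb3, 1.96 for Hoxb6, 1.90 for Serpina3n and 1.96 for 4930550L24Rik. Of the other probe sets of genes above all 4 arrays, 342 of 399 had the same sign (85.7%), but for Fabp4 only 1 of 3 and for Cryab 1 of 2 did.

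**Figure D2:**
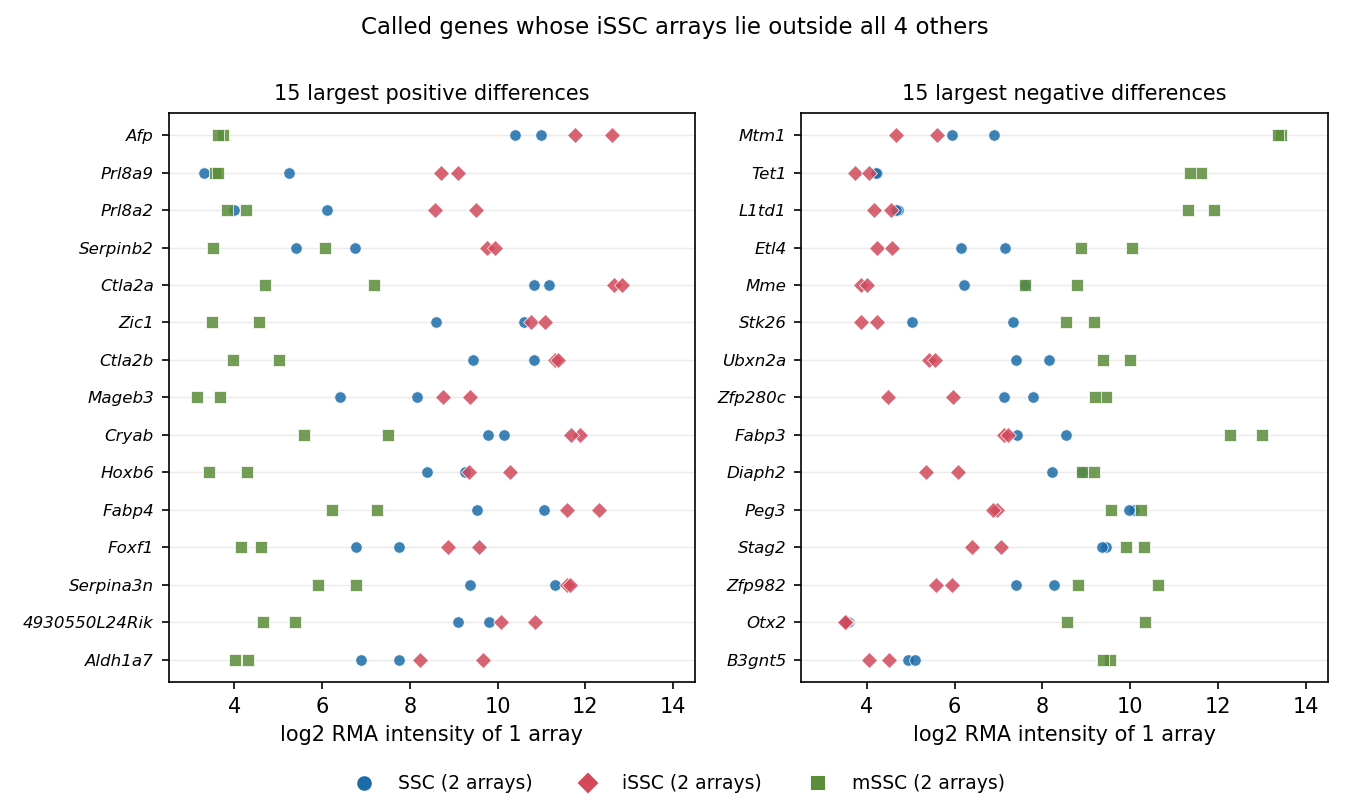
Log2 RMA intensity on each of the 6 arrays (horizontal axis) for the 15 genes with the largest positive and the 15 with the largest negative difference among called genes whose iSSC arrays (red diamonds) lie outside all others. Prl8a9, Prl8a2 and Serpinb2 have both other states far to the left, whereas in Afp, Ctla2a and Zic1 SSC (blue circles) lies close to iSSC and mSSC (green squares) is far away. Peg3, Stag2 and Diaph2 have both other states far to the right.

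The 27 genes higher in iSSC than in each state on its own ran from 1.13 to 4.97 above the midpoint, with a median of 1.85. Besides the prolactin genes they included Plvap, a protein of endothelial fenestrae also expressed by some undifferentiated spermatogonia, and Lhx1, a homeodomain factor of self-renewing spermatogonia. Plvap measured 6.85 and 6.57 in SSC, 9.24 and 8.57 in iSSC and 6.40 and 5.95 in mSSC (difference 2.46 ± 0.27, adjusted p = 0.0102). Plvap was the 1 called gene of 15 endothelial markers. Lif, the cytokine that sustains mouse embryonic stem cells, measured 6.39 and 6.44 in SSC, 7.96 and 8.34 in iSSC and 6.28 and 6.79 in mSSC (1.67 ± 0.23, adjusted p = 0.0147). It was the 1 called gene of 13 in the Lif and Stat3 list. Sprr2d, a cornified envelope protein of squamous epithelium, measured 5.10 and 4.84 in SSC, 7.30 and 7.64 in iSSC and 5.56 and 5.76 in mSSC (2.16 ± 0.20, adjusted p = 0.00846). It was the 1 called gene among 23 keratins and envelope genes, whose median was 0.06. With 6.72% of all genes called, nothing is read from these single calls about their lists.

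Other genes of this class were singled out after their values were seen. Glrx, a glutaredoxin of thiol redox balance, measured 8.65 and 8.16 in SSC, 10.88 and 11.53 in iSSC and 8.78 and 9.61 in mSSC (2.41 ± 0.33). Tubg2, a gamma-tubulin, measured 6.89 and 6.38 in SSC, 8.65 and 8.34 in iSSC and 4.78 and 4.31 in mSSC (2.90 ± 0.25), although its 1 other probe set had the opposite sign. Prostaglandin genes were represented by Ptges, a prostaglandin E synthase, at 1.74 ± 0.22, and Ptgir, the prostacyclin receptor, at 2.01 ± 0.25. Stx11, a syntaxin of secretory granules, differed by 2.26 ± 0.20, Crct1, a cysteine-rich gene of the epidermal differentiation region, by 2.93 ± 0.42, and Ripk3, a kinase of necroptosis, by 1.22 ± 0.19. In each of these 7 genes both iSSC arrays exceeded all 4 others.

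Undifferentiated spermatogonia are the population that holds the stem cells. Of 25 measured members of their list 11 were called higher in iSSC than the midpoint, 1 (Cdh1, described with the epithelial genes) was called lower and 13 were not called, and 8 of the 11 lay above all 4 other arrays. The shares over all genes were 2.98% higher and 3.74% lower. Of the 25, 5 had a negative difference, Cdh1 and the uncalled Itga6 (-0.77), Thy1 (-0.30), Cd9 (-0.07) and Egr3 (-0.03). These uncalled genes were named after their values were seen. Both iSSC arrays of Itga6 lay below all 4 others. The list median was 1.17, against 0.05 over all genes, and its medians against SSC and mSSC were 0.59 and 1.92. Only 2 members, Lhx1 and Plvap, were called higher against each state on its own, as were 0.148% of all genes. Ret, the Gdnf receptor, measured 9.04 and 8.90 in SSC, 10.28 and 9.89 in iSSC and 6.04 and 6.30 in mSSC (difference 2.52 ± 0.20, adjusted p = 0.00688, limma). Its co-receptor Gfra1 measured 9.56 and 10.14 in SSC, 10.09 and 10.72 in iSSC and 5.45 and 5.71 in mSSC (2.69 ± 0.27), so that for Gfra1 the SSC and iSSC arrays overlapped. Lhx1 measured 7.21 and 7.25 in SSC, 8.55 and 8.63 in iSSC and 5.27 and 5.41 in mSSC (2.30 ± 0.17), and was called against SSC (adjusted p = 0.0346) and mSSC (adjusted p = 0.001).

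Id4, an inhibitor of differentiation that marks spermatogonial stem cells, measured 10.56 and 10.15 in SSC, 11.47 and 11.32 in iSSC and 8.78 and 9.22 in mSSC (1.72 ± 0.22). Glis3, a zinc finger factor of spermatogonial stem cells, differed by 2.63 ± 0.19 and Egr2, an early response factor, by 2.62 ± 0.47. Bcl6b and Cxcr4, a Gdnf-responsive repressor and the Cxcl12 receptor, were named after their values were seen and differed by 2.04 ± 0.31 and 1.98 ± 0.35. Piwil4, a Piwi protein of fetal germ cells and the most primitive spermatogonia, was likewise named afterwards. It measured 5.33 and 5.49 in SSC, 7.28 and 7.09 in iSSC and 4.38 and 3.50 in mSSC (2.51 ± 0.28, adjusted p = 0.0102). Against SSC the adjusted p of Piwil4 was 0.0524. Zbtb16, the self-renewal factor Plzf, measured 12.41 and 10.56 in SSC, 11.07 and 11.17 in iSSC and 6.07 and 6.11 in mSSC, so iSSC lay within the SSC range and the difference of 2.33 ± 0.48 fell to 0.33 on the linear-scale average. Gfra1 (1.49) and Glis3 (1.50) also moved by over 1.5 times on that scale. The call of Zbtb16 was lost without either mSSC array, that of Egr2 without either SSC array and that of Cxcr4 without mSSC replicate 1. The call of Zbtb16 was also lost after a further quantile normalization.

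**Figure D3:**
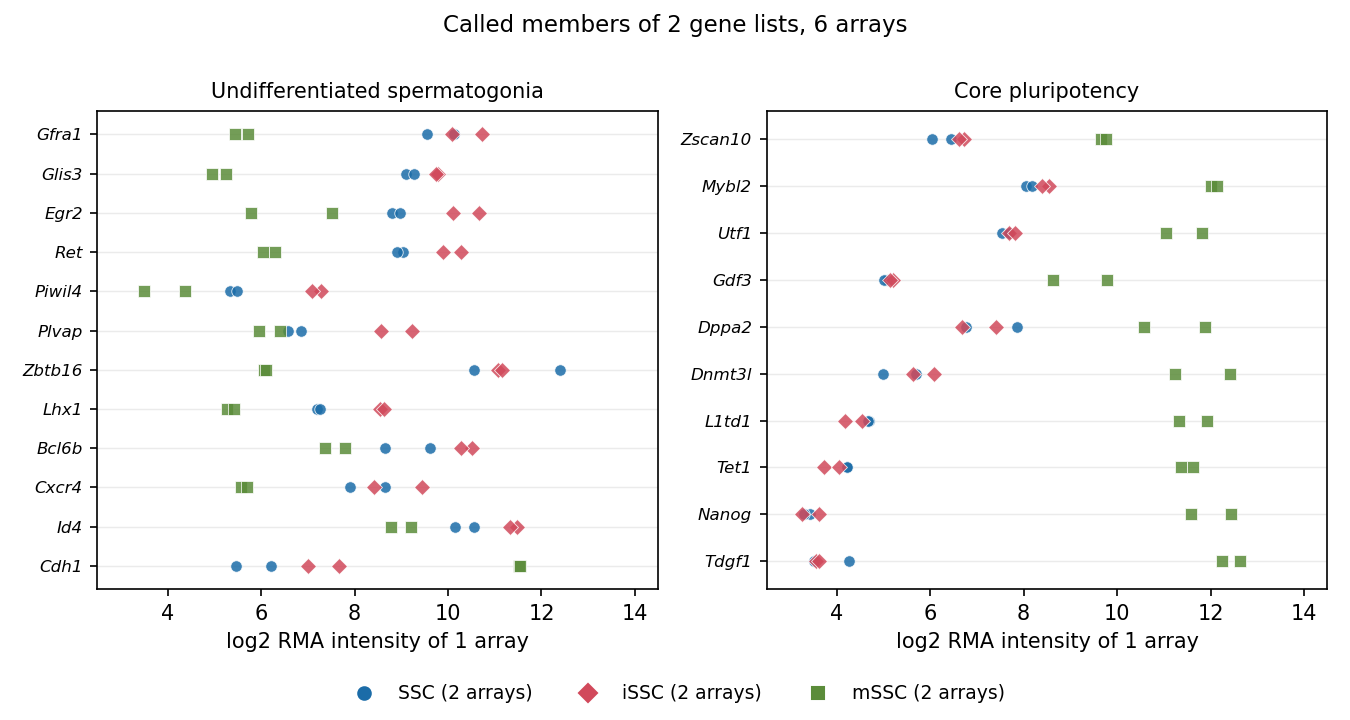
Log2 RMA intensity on each array (horizontal axis) for the 12 called genes of the undifferentiated spermatogonia list and the 10 called genes of the core pluripotency list, ordered by their difference from the midpoint. In Ret, Lhx1, Id4, Plvap and Piwil4 both iSSC arrays (red diamonds) lie above all others, whereas in Nanog, Tdgf1 and Dnmt3l they lie among or beside the SSC arrays (blue circles) with mSSC (green squares) far above.

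Germ line and piRNA genes, which silence transposons and specify germ cells, were 7 higher and 1 lower of 26, with a median of 1.13 (0.08 against SSC and 2.15 against mSSC). The shares over all genes were 2.98% higher and 3.74% lower. Bnc1, a zinc finger factor of germ cells and keratinocytes, differed most, by 3.61 ± 0.41, with iSSC at 11.39 and 11.25 beside SSC replicate 2 at 11.27. Tdrd1, a Tudor protein of the piRNA pathway that was named after its values were seen, measured 7.39 and 8.58 in SSC, 9.34 and 8.71 in iSSC and 5.16 and 4.36 in mSSC (2.65 ± 0.41). Dnd1, an RNA-binding protein that preserves germ cells and was named after its values were seen, measured 10.07 and 9.99 in SSC, 11.43 and 10.58 in iSSC and 8.67 and 7.77 in mSSC (1.88 ± 0.34). Tdrd5, Tdrkh and Asz1, further piRNA pathway proteins named after their values were seen, differed by 1.81 ± 0.38, 1.74 ± 0.34 and 1.78 ± 0.39, and Tdrkh and Asz1 overlapped SSC. Nxf2, an RNA export factor, differed by 1.95 ± 0.29 and lay between the states. Without SSC replicate 1 only 3 members were called higher. The calls of Dnd1 and Tdrd5 were lost without either SSC array, that of Asz1 also without mSSC replicate 2, and those of Tdrd5, Tdrkh and Asz1 after quantile normalization. With the linear-scale average the differences of Bnc1, Nxf2, Tdrd5, Tdrkh and Asz1 were 1.51, 0.46, 1.20, 1.06 and 1.16. The germ cell genes Dazl and Ddx4 were not called, at 0.38 ± 0.31 (adjusted p = 0.572) and 1.30 ± 0.51 (adjusted p = 0.195). Dazl measured 13.19 and 13.79 in SSC, 11.91 and 12.21 in iSSC and 9.43 and 10.29 in mSSC, in steps from state to state. The Dazl difference ran from 0.16 to 0.60 and that of Ddx4 from 0.82 without SSC replicate 1 to 1.78 without SSC replicate 2, where Ddx4 passed the threshold (adjusted p = 0.0237).

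Rnf17, a Tudor and RING protein of male germ cells, went the other way. It measured 9.23 and 9.94 in SSC, 7.30 and 7.37 in iSSC and 9.72 and 9.34 in mSSC, a difference of -2.22 ± 0.26 (adjusted p = 0.0104, limma), and all 3 of its other probe sets had the same sign. Both iSSC arrays were well below all others, and Rnf17 was called against SSC (adjusted p = 0.0289) and mSSC (adjusted p = 0.00636). With the mean of its probe sets in place of the brightest the call was lost. Of 23 meiosis genes 2 were lower and 0 higher, where 3.74% of all genes were called lower, and nothing is read from this count about the list. Hormad1, a protein of the meiotic chromosome axis, measured 6.57 and 7.94 in SSC, 5.13 and 5.31 in iSSC and 7.16 and 7.00 in mSSC (-1.95 ± 0.38), and Terb1, which tethers telomeres in meiosis, differed by -1.07 ± 0.21 with iSSC near mSSC. Both calls were lost without either mSSC array, that of Terb1 also after quantile normalization, and Terb1 was -1.80 with the linear-scale average.

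Differentiating spermatogonia genes were 4 higher and 0 lower of 15, where 2.98% of all genes were called higher. Tex101, a germ cell surface protein, measured 11.50 and 11.48 in SSC, 12.23 and 11.54 in iSSC and 6.58 and 7.39 in mSSC (2.64 ± 0.31). Dmrt1, which restrains entry into meiosis, had iSSC at 12.15 and 12.10 beside SSC at 12.13 and 12.07 (1.58 ± 0.30). Ccnd2, a D cyclin, and Sohlh1, a factor of spermatogonial differentiation, differed by 1.77 ± 0.37 and 1.70 ± 0.36 with iSSC between the states. Only 1 of the 4 was called without SSC replicate 1, the calls of Dmrt1 and Ccnd2 were lost without either SSC array, and that of Sohlh1 without any of the 4 SSC and mSSC arrays. Ccnd2 and Sohlh1 were also lost after quantile normalization and with the mean of probe sets. Sohlh1 was 1.07 without iSSC replicate 1, and on the linear-scale average Tex101, Dmrt1, Ccnd2 and Sohlh1 were 1.37, 0.86, 0.46 and 0.38. Kit, the receptor of differentiating spermatogonia, and Stra8, induced by retinoic acid before meiosis, were not called (-1.49 ± 0.88 and -0.89 ± 1.09). Stra8 stood at 7.29 and 11.30 on the 2 iSSC arrays, and its difference turned to 1.12 without iSSC replicate 1. Kit moved by over 1.5 times without either SSC or either iSSC array, to between -2.28 and -0.70.

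Of 19 core pluripotency genes 10 were called lower in iSSC than the midpoint and 0 higher, with a median of -1.59, and 2 of the uncalled members (Tcl1 at 0.73 and Trim71 at 0.44, named after their values were seen) had a positive difference. Among all genes 3.74% were called lower and 2.98% higher. The list median was 0.32 against SSC and -3.60 against mSSC. Nanog, a homeodomain factor of naive pluripotency, measured 3.42 and 3.29 in SSC, 3.62 and 3.25 in iSSC and 11.58 and 12.44 in mSSC, a difference of -4.25 ± 0.28 (adjusted p = 0.0059, limma). The iSSC and SSC arrays of Nanog overlapped at the dim end of the array, so its difference from the midpoint is that of mSSC. Tdgf1, the Nodal co-receptor Cripto, differed by -4.56 ± 0.26 in the same manner. The DNA demethylase Tet1 measured 4.22 and 4.22 in SSC, 3.73 and 4.05 in iSSC and 11.62 and 11.37 in mSSC (-3.97 ± 0.19), and L1td1, an RNA-binding protein of embryonic stem cells, differed by -3.79 ± 0.24. These 2 counted as below all other arrays, yet their distance from SSC was -0.33 each. Dppa2, a chromatin factor named after its values were seen, differed by -2.23 ± 0.48 and overlapped SSC, and its call was lost without SSC replicate 2 or mSSC replicate 2.

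Pou5f1 (Oct4) and Sox2 did not reach the threshold. Pou5f1 measured 9.52 and 8.22 in SSC, 8.98 and 9.25 in iSSC and 12.31 and 12.79 in mSSC (-1.59 ± 0.38, adjusted p = 0.0618). It passed the threshold without SSC replicate 1 (adjusted p = 0.0468) or SSC replicate 2 (adjusted p = 0.0241). Sox2 measured 6.04 and 7.06 in SSC, 7.37 and 8.48 in iSSC and 11.78 and 11.74 in mSSC (-1.23 ± 0.40, adjusted p = 0.134), with both iSSC arrays above both SSC arrays but a step from SSC of 1.38 ± 0.46 (adjusted p = 0.216). The Sox2 difference was -0.67 without iSSC replicate 1. Lin28a, which blocks let-7 maturation, measured 9.81 and 9.78 in SSC, 9.74 and 10.50 in iSSC and 11.66 and 11.04 in mSSC and was not called (-0.45 ± 0.29). Its difference was -0.08 without iSSC replicate 1, -0.83 without iSSC replicate 2 and -0.30 without mSSC replicate 1.

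Naive pluripotency genes were 9 lower and 0 higher of 16, with a median of -1.42, where 3.74% of all genes were called lower. Esrrb, an orphan nuclear receptor, and Nr0b1 (Dax1) lay at the SSC level and differed by -2.98 ± 0.22 and -3.52 ± 0.37. Tfcp2l1, a target of the Lif pathway, differed from this pattern. It measured 7.86 and 7.32 in SSC, 6.72 and 6.27 in iSSC and 10.66 and 11.47 in mSSC, a difference of -2.84 ± 0.31 (adjusted p = 0.0102), and was below SSC as well by 1.10 on average. Klf4, a reprogramming factor, was below all others at 9.27 and 9.56 in iSSC against 10.07 and 10.08 in SSC and 10.52 and 10.86 in mSSC (-0.97 ± 0.20, adjusted p = 0.0416). Klf2 and Klf5, related factors named after their values were seen, differed by -2.28 ± 0.39 and -2.51 ± 0.39. The call of Klf4 was lost without any of the 4 SSC and mSSC arrays and that of Klf2 without SSC replicate 1. With the mean of probe sets Klf4, Klf5 and Dppa2 lost their calls, and 1 of 2 other probe sets of Tfcp2l1 had the same sign.

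Primed epiblast and gastrulation genes were 2 higher and 4 lower of 16, against 2.98% and 3.74% of all genes. Foxa2, a forkhead factor of endoderm named after its values were seen, measured 6.23 and 6.69 in SSC, 7.65 and 8.06 in iSSC and 6.01 and 5.82 in mSSC (1.67 ± 0.23, adjusted p = 0.0147). Pou3f1 (Oct6), expressed in epiblast and in spermatogonia, measured 9.78 and 10.18 in SSC, 10.95 and 10.92 in iSSC and 8.78 and 8.42 in mSSC (1.65 ± 0.21). Both lay above all 4 other arrays. Otx2, a homeodomain factor of epiblast, and Lefty2 and Nodal, of the Nodal pathway, were low in SSC and iSSC alike and differed by -3.01 ± 0.46, -2.93 ± 0.20 and -2.27 ± 0.24, as did Lefty1 (-1.33 ± 0.21), also named afterwards. DNA methylation genes were 3 lower and 0 higher of 15. Besides Tet1 these were Dnmt3l (-2.73 ± 0.39), a cofactor of de novo methylation, and Zfp57 (-1.15 ± 0.20), which protects imprints, both with iSSC near SSC. With the linear-scale average the called differences of Nanog, Tdgf1, Tet1, L1td1, Esrrb, Nr0b1, Klf5, Otx2, Lefty2, Nodal, Lefty1 and Dnmt3l were -7.63, -7.86, -6.61, -6.29, -5.12, -6.23, -3.93, -5.23, -4.80, -3.86, -2.25 and -5.08. Dppa2 was -3.38.

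The genes with the largest negative difference among those below all other arrays are given next, apart from Tet1, L1td1 and Otx2 above. Peg3, a paternally expressed imprinted zinc finger gene, measured 10.09 and 9.98 in SSC, 6.96 and 6.87 in iSSC and 10.25 and 9.56 in mSSC. The difference was -3.05 ± 0.24, an 8.30-fold lower level (adjusted p = 0.00688, limma), and all 4 other probe sets of Peg3 had the same sign. SSC and mSSC overlapped and both iSSC arrays lay far below them. Among 25 imprinted genes Peg3 was the 1 called lower, and Ndn, of the Prader-Willi region, was the 1 called higher (1.27 ± 0.20), a call lost with the mean of probe sets. With 3.74% of all genes called lower and 2.98% higher, nothing is read from these counts about imprinted genes. The fetal growth genes Igf2 (0.98 ± 0.47, adjusted p = 0.294) and Dlk1 (0.96 ± 0.42, adjusted p = 0.241) were not called. Igf2 was 0.59 without mSSC replicate 1, and Dlk1 was 0.48 without iSSC replicate 2.

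Stag2, a subunit of the cohesin ring that holds sister chromatids together, measured 9.45 and 9.36 in SSC, 6.41 and 7.05 in iSSC and 10.31 and 9.91 in mSSC (-3.03 ± 0.25, adjusted p = 0.00688). Diaph2, a formin that assembles actin, measured 8.90 and 8.22 in SSC, 5.35 and 6.08 in iSSC and 8.89 and 9.17 in mSSC (-3.08 ± 0.30). Ubxn2a, a cofactor of the p97 ATPase, measured 8.14 and 7.40 in SSC, 5.42 and 5.56 in iSSC and 9.39 and 9.99 in mSSC (-3.24 ± 0.29). All were called against each state, with both iSSC arrays at least 1 log2 unit below every other.

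Of the remaining lowest genes, Mtm1, a phosphoinositide phosphatase, differed by -4.78 ± 0.36 but only by -1.29 from SSC, since mSSC was far brighter at 13.44 and 13.38. Mme, the endopeptidase neprilysin, measured 6.21 and 7.61 in SSC, 3.87 and 4.00 in iSSC and 7.61 and 8.78 in mSSC (-3.62 ± 0.47). Etl4, a gene of the notochord and kidney, measured 7.14 and 6.14 in SSC, 4.23 and 4.57 in iSSC and 8.89 and 10.04 in mSSC (-3.66 ± 0.41). In Mme and Etl4 the iSSC arrays were at the dim end. Stk26, a Ste20 kinase, differed by -3.47 ± 0.61, Zfp280c by -3.18 ± 0.43, Zfp982 by -3.02 ± 0.52, Fabp3, a fatty acid carrier of muscle, by -3.14 ± 0.36 and B3gnt5, a glycolipid enzyme, by -2.97 ± 0.21. On the linear-scale average Mtm1 was -7.21. The call of Stk26 was lost without mSSC replicate 1, that of Zfp982 without SSC replicate 1, and that of Etl4 with the mean of its probe sets, of which 3 of 5 others had the same sign.

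Further genes called lower against each state were named after their values were seen. Dnm1l, the GTPase that divides mitochondria, measured 10.43 and 10.51 in SSC, 7.92 and 8.16 in iSSC and 11.30 and 11.05 in mSSC (-2.78 ± 0.19, adjusted p = 0.0059). Smarca5, the ATPase of ISWI chromatin remodellers, measured 12.51 and 12.55 in SSC, 9.98 and 9.99 in iSSC and 12.45 and 11.76 in mSSC (-2.33 ± 0.24). These are bright genes, and both iSSC arrays were below all others by more than the spread of any state. Ccar1, a regulator of apoptosis and transcription, differed by -2.85 ± 0.34, Nop58, of the box C/D small nucleolar ribonucleoproteins, by -2.83 ± 0.33, Vamp7, a vesicle fusion protein, by -2.74 ± 0.18 and Top2b, a DNA topoisomerase, by -2.58 ± 0.32. Over the 172 genes the median difference was -1.94.

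The promoters of Peg3 (chr7:6730370-6730669) and Dnm1l (chr16:16358526-16358825) are shown beside those of the prolactin and Ctla2 genes, in the same build, strand and notation.
Peg3: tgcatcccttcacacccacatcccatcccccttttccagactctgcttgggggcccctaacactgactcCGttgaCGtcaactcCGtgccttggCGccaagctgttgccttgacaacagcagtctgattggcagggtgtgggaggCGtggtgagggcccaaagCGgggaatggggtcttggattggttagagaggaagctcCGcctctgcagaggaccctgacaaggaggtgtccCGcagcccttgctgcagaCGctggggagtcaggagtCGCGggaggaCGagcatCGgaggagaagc
Dnm1l: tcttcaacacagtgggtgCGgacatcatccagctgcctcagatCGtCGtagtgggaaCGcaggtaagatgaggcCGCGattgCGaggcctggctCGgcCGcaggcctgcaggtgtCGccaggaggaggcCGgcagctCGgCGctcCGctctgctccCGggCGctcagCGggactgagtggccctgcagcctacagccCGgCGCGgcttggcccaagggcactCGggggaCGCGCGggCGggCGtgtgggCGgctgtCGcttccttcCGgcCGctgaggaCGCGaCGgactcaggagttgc

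They hold 13 and 33 CG dinucleotides, and neither holds TGANTCA or TATAAA. Dnm1l was picked after its values were seen, and these windows measure no difference between the classes. TGANTCA occurred in 4.24% of the promoters of genes below all other arrays, 8.33% of those of genes above and 6.33% of all. The 448 promoters of genes below all other arrays had a median of 24 CG, a median GC content of 62.7% and TATAAA in 6.25%, against 17, 58.7% and 9.87% over all 14453. The 336 promoters of genes above had a median of 19 CG, and CCAAT occurred in 38.7% of these, 39.5% of those below and 38.2% of all. Genes below all other arrays were also longer, with a median span of 55.1 kb against 20.2 kb over all genes and 20.9 kb for genes above. They were X-linked in 8.49% of cases (46 of 542), against 3.41% of all genes and 3.09% of those above. Their median level over all arrays was 8.59, against 7.30 over all genes. These are descriptions of the classes, and the part of gene length, base composition or brightness in the result was not tested. Of the other probe sets of genes below all 4 arrays, 914 of 1044 had the same sign (87.5%).

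Mitosis genes were 4 lower and 0 higher of 21, with a list median of -0.29, where 3.74% of all genes were called lower. Hmmr, a spindle-associated hyaluronan receptor, measured 9.19 and 9.34 in SSC, 7.73 and 7.83 in iSSC and 11.34 and 10.84 in mSSC (-2.40 ± 0.21, adjusted p = 0.00786, limma) and was called against both states. Bub1, a checkpoint kinase, measured 11.06 and 11.77 in SSC, 10.14 and 10.08 in iSSC and 12.64 and 11.85 in mSSC (-1.72 ± 0.31). Top2a, a topoisomerase of dividing cells, and Ttk, the checkpoint kinase Mps1, differed by -1.22 ± 0.22 and -1.29 ± 0.24. In all 4 genes both iSSC arrays lay below every other array. The list as a whole did not follow them, since 8 of its members had a positive difference and its median against SSC was 0.39. Replication genes were 1 higher (E2f1, a factor of S phase entry, 0.94 ± 0.20) and 0 lower of 22, with a median of 0.23. With 2.98% of all genes called higher, nothing is read from this 1 call about the replication list. Other probe sets agreed in sign in 4 of 4 cases for Hmmr and 1 of 2 for E2f1, and with the mean of probe sets Top2a, Ttk and E2f1 lost their calls. Without mSSC replicate 1 only 2 mitosis genes were called, Ttk was lost without either mSSC array, Top2a also without SSC replicate 1, and E2f1 without any of the 4 SSC and mSSC arrays.

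**Figure D4:**
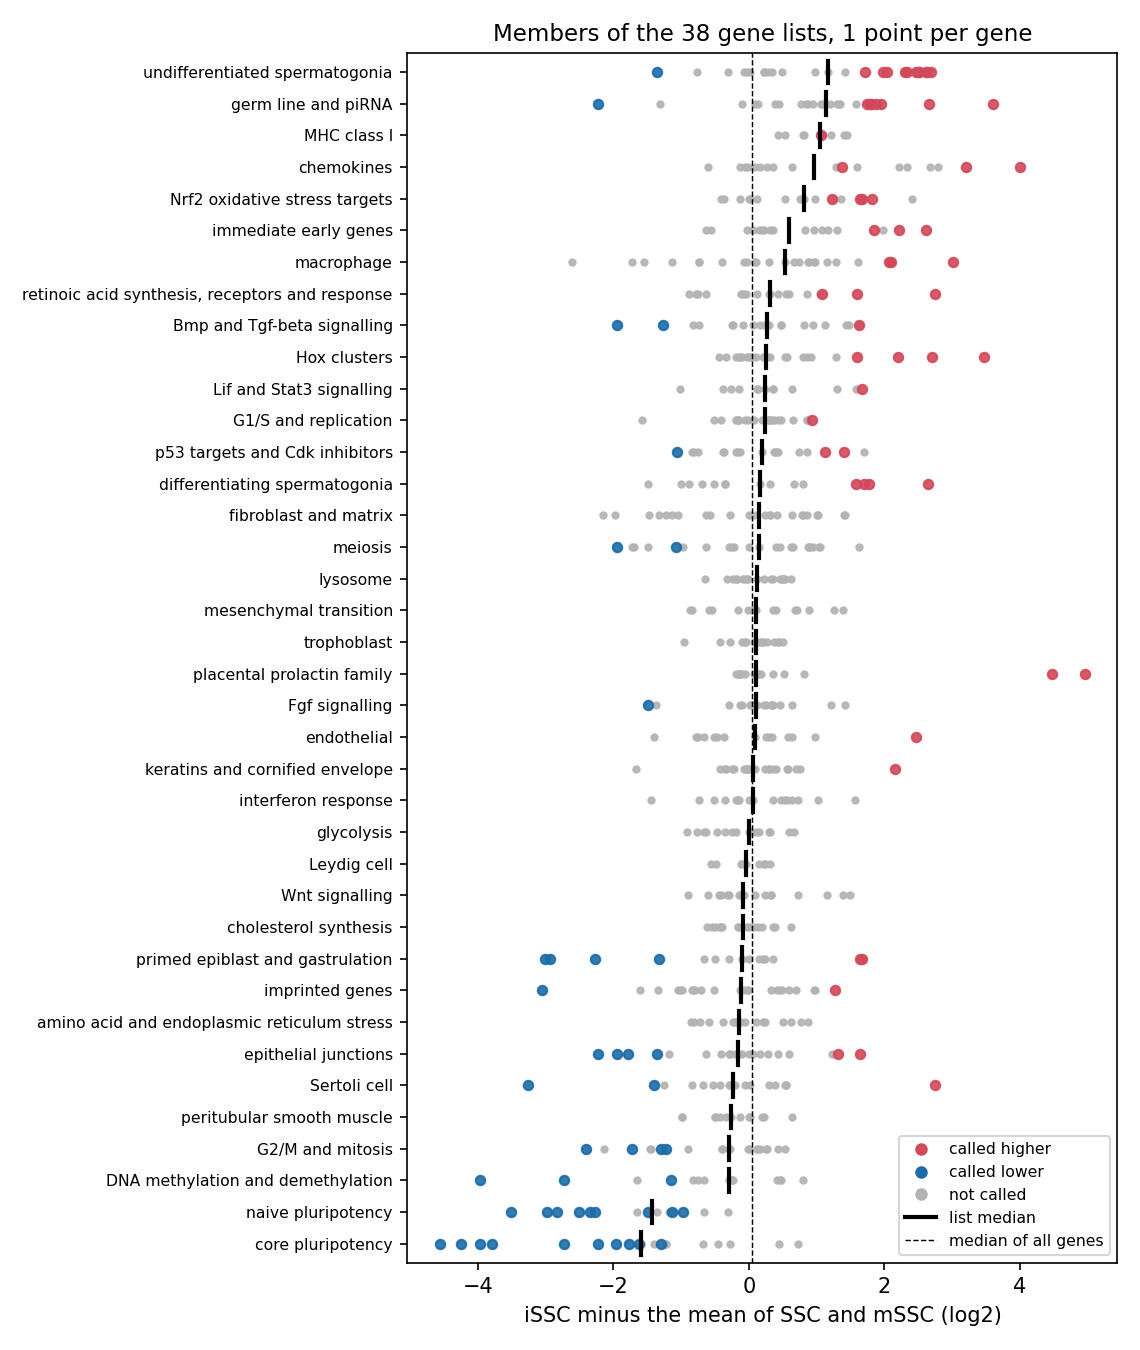
Difference of iSSC from the midpoint of SSC and mSSC (log2, horizontal axis) for each measured member of 38 gene lists, ordered by list median (black tick), with called genes in red (higher) or blue (lower) and the median of all genes as a dashed line. Undifferentiated spermatogonia and germ line genes sit at the top with medians of 1.17 and 1.13, and naive and core pluripotency at the bottom with -1.42 and -1.59.

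Hox genes, which pattern the body axis, were 4 higher and 0 lower of 24, and the called genes were all of the Hoxb cluster. The share called higher over all genes was 2.98%. Hoxb5 measured 7.53 and 7.69 in SSC, 8.58 and 8.56 in iSSC and 4.17 and 4.07 in mSSC (2.71 ± 0.17, adjusted p = 0.0059). Hoxb6 measured 8.39 and 9.26 in SSC, 9.34 and 10.29 in iSSC and 4.28 and 3.43 in mSSC (3.48 ± 0.41), Hoxb2 differed by 2.20 ± 0.25 and Hoxb4 by 1.60 ± 0.23. The first 3 lay above all other arrays, with SSC close below, and Hoxb4 overlapped SSC. Retinoic acid genes were 3 higher and 0 lower of 18, beside the same 2.98% of all genes called higher. Aldh1a3, an enzyme of retinoic acid synthesis, measured 4.96 and 5.08 in SSC, 6.29 and 6.02 in iSSC and 5.09 and 5.18 in mSSC (1.08 ± 0.18). Its paralogue Aldh1a1 lay between the states at 11.67 and 10.01 in iSSC (2.76 ± 0.44) and turned to -0.28 on the linear-scale average. The call of Aldh1a3 was lost without mSSC replicate 1 and with the mean of probe sets. Hoxb4 is also a member of the retinoic acid list.

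Targets of Nrf2, the factor of the oxidative stress response, were 4 higher and 0 lower of 17, with a median of 0.81. Over all genes 2.98% were called higher and the median was 0.05. Slc7a11, the cystine transporter, measured 4.00 and 4.24 in SSC, 6.22 and 6.19 in iSSC and 4.58 and 5.41 in mSSC (1.65 ± 0.27, adjusted p = 0.0231) and was called against both states. Gclc, of glutathione synthesis, measured 10.01 and 11.17 in SSC, 11.64 and 12.06 in iSSC and 9.33 and 9.60 in mSSC (1.82 ± 0.35). Nqo1, a quinone reductase, differed by 1.66 ± 0.34 but overlapped mSSC, and Cbr3, a carbonyl reductase, differed by 1.23 ± 0.26. Without mSSC replicate 1 only 1 member was called and without mSSC replicate 2 only 2, while Cbr3 was also lost without either SSC array. Immediate early genes were 3 higher and 0 lower of 18, with a median of 0.60. Beside Egr2 these were Ier3, an early response gene, at 10.57 and 10.45 in SSC, 12.10 and 11.94 in iSSC and 9.34 and 10.33 in mSSC (1.85 ± 0.30), and Fosl1, an AP-1 subunit, at 8.73 and 7.90 in SSC, 9.56 and 9.83 in iSSC and 5.93 and 7.35 in mSSC (2.22 ± 0.44). In both the iSSC arrays were highest. Without SSC replicate 2 only 1 of these genes was called, Fosl1 among those lost, and without mSSC replicate 2 the count was 5. Cbr3 and Fosl1 lost their calls after quantile normalization.

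Smad6, a feedback inhibitor of Bmp signalling, measured 7.76 and 7.29 in SSC, 8.78 and 8.68 in iSSC and 6.47 and 6.89 in mSSC (1.63 ± 0.23). Its list was 1 higher and 2 lower of 20, the latter being Bmp4 (-1.94 ± 0.34), a ligand whose iSSC level was close to that of SSC, and Skil (-1.26 ± 0.27), a Smad repressor. Fgf4, an autocrine ligand of embryonic stem cells, was the 1 called gene of 20 in the Fgf list (-1.50 ± 0.20, and -2.38 on the linear-scale average). Of 19 p53 targets and Cdk inhibitors, Plk2 (1.13 ± 0.21) and Cdkn2b (1.40 ± 0.30) were higher and Trp53inp1 (-1.06 ± 0.20) was lower. Of 10 MHC class I genes H2-K1 (1.06 ± 0.23) was called, while all 10 had a positive difference and the median was 1.06. Over all genes 56.1% had a positive difference, 2.98% were called higher and 3.74% lower. Nothing is read from the counts of called genes in these lists. Calls lost on leaving out single SSC or mSSC arrays were those of Bmp4 (either SSC array), Skil (either mSSC array), Plk2 (mSSC replicate 1), Trp53inp1 (SSC replicate 2 or either mSSC array), and Cdkn2b and H2-K1 (either SSC array or mSSC replicate 1). Skil, Cdkn2b and H2-K1 were lost after quantile normalization, and Skil, Plk2, Cdkn2b, Trp53inp1 and H2-K1 with the mean of probe sets, the 1 other probe set of Skil and of Plk2 having the opposite sign.

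Epithelial junction genes were 2 higher and 4 lower of 22, against 2.98% and 3.74% of all genes. Esrp1, an epithelial splicing factor named after its values were seen, and Marveld2, a tight junction protein, lay above all other arrays (1.31 ± 0.22 and 1.64 ± 0.23). Cldn6, Cldn7 and Cldn4, claudins of tight junctions, were low in SSC and iSSC and bright in mSSC (-1.95 ± 0.20, -2.22 ± 0.33 and -1.79 ± 0.36), the last being named after its values were seen. Cdh1, E-cadherin, measured 5.47 and 6.21 in SSC, 7.68 and 7.00 in iSSC and 11.52 and 11.54 in mSSC. It lay between the states, 1.50 above SSC, and differed by -1.35 ± 0.29 from the midpoint (-3.18 on the linear-scale average). On that scale Cldn6, Cldn7, Cldn4 and Marveld2 were -3.08, -3.53, -3.18 and 1.02. The call of Esrp1 was lost without mSSC replicate 1 that of Cldn4 without either SSC array, and that of Cdh1 without SSC replicate 2 or either mSSC array, after quantile normalization and with the mean of probe sets. Of 15 genes of mesenchymal transition 0 were called. Of the panel, the mesenchymal genes Cdh2 (0.71 ± 0.36) and Vim (-0.02 ± 0.26) and the keratins Krt8 (-0.35 ± 0.29) and Krt18 (0.40 ± 0.56) were not called, and these small values moved by over 1.5 times when single arrays were left out. Over these fits they ran from 0.44 to 0.98 for Cdh2, from -0.22 to 0.19 for Vim, from -0.57 to -0.13 for Krt8 and from -0.26 to 1.06 for Krt18.

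Genes with iSSC between the states include markers of cells other than germ cells. Lyz2, the lysozyme of macrophages, measured 14.27 and 14.16 in SSC, 13.61 and 12.80 in iSSC and 6.16 and 6.15 in mSSC (3.02 ± 0.26, adjusted p = 0.00766). Its near copy Lyz1, which probes may not separate from it, differed by 3.52 ± 0.29 and Wfdc17, an activated macrophage gene, by 2.67 ± 0.50, a call lost without either mSSC array. The iSSC arrays of Lyz2 were far above mSSC and below both SSC arrays, and on the linear-scale average the differences were 0.04 for Lyz2, 0.40 for Lyz1 and 0.25 for Wfdc17. Of 25 macrophage markers 3 were called higher (Lyz2, Adgre1 and Ctss, all between the states) and 0 lower, and 16 had a positive difference. Over all genes 2.98% were called higher and 56.1% had a positive difference. The log2 of their summed intensity was 16.64 and 15.78 in SSC, 14.68 and 13.98 in iSSC and 11.06 and 12.05 in mSSC. C1qb, a complement chain of macrophages, was not called against the midpoint (0.87 ± 0.31) but fell from state to state, at 12.51 and 12.07 in SSC, 9.57 and 8.60 in iSSC and 4.11 and 4.14 in mSSC. Its difference was 0.39 without iSSC replicate 1 and 1.36 without iSSC replicate 2. Fewer macrophages and less RNA of these genes per macrophage cannot be told apart in RNA of whole colonies, and the part of such cells in the differences of germ line genes was not tested.

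The summed fibroblast and matrix genes, which feeder cells express, were at 17.04 and 16.51 in SSC, 14.83 and 15.21 in iSSC and 12.43 and 14.63 in mSSC, and 0 of 24 were called. Col1a1, a collagen chain of fibroblasts, measured 9.16 and 9.71 in iSSC (-1.05 ± 0.61, adjusted p = 0.384), and was -0.69 without SSC replicate 1 and -0.59 without mSSC replicate 2. Its iSSC mean differed by -3.29 from SSC and by 1.19 from mSSC. The medians of the fibroblast and matrix list were -1.65 against SSC and 1.93 against mSSC. Sertoli markers were 1 higher (Aldh1a1) and 2 lower of 19, against 2.98% and 3.74% of all genes. Kitl, the ligand of Kit, measured 8.67 and 8.97 in SSC, 6.30 and 6.36 in iSSC and 6.81 and 6.50 in mSSC (-1.41 ± 0.20, lost with the mean of probe sets), and Rhox5, a homeobox gene of Sertoli and embryonic stem cells, was near the SSC level in iSSC (-3.26 ± 0.23, and -5.97 on the linear-scale average). Leydig and peritubular muscle markers had 0 called of 9 and 13. Chemokines were 3 higher and 0 lower of 18, where 2.98% of all genes were called higher. Ccl6 measured 12.44 and 11.89 in SSC, 12.78 and 11.85 in iSSC and 4.79 and 4.12 in mSSC (4.01 ± 0.35), overlapping SSC, as did Ccl9 (3.20 ± 0.52), while Ccl3 lay between the states (1.37 ± 0.22). On the linear-scale average Ctss and Ccl3 turned to -0.71 and -0.26, and Ccl6, Ccl9 and Adgre1 were 1.19, 1.54 and 0.83. Without mSSC replicate 2 the count of chemokines called was 6, and without SSC replicate 1 that of macrophage markers was 5, while without SSC replicate 2 it was 3 higher and 4 lower.

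Of the 38 lists 11 had 0 called genes with 2 arrays per state. They were Wnt signalling, mesenchymal transition, trophoblast, fibroblast and matrix, Leydig cell, peritubular smooth muscle, amino acid and endoplasmic reticulum stress, interferon response, glycolysis, cholesterol synthesis and lysosome. With 6.72% of all genes called, nothing is read from a count of 0 about any of these lists. The smallest called difference over all genes was 0.80, and no shift under this size passed the threshold. Among lower genes with iSSC between the states, Mymx, the muscle fusion peptide myomixer, measured 4.23 and 3.52 in SSC, 4.25 and 3.99 in iSSC and 9.94 and 11.10 in mSSC (-3.08 ± 0.38, and -5.52 on the linear-scale average), and with Nanog, Nr0b1 and Rhox5 it had the largest differences of that class.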

How the data were processed

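RNA of 2 SSC, 2 iSSC and 2 mSSC samples was hybridised to Affymetrix arrays. RNA came from Trizol extracts, of which 10 µg went into NuGEN amplification and biotin labelling, per the labels' protocols. The deposited log2 values were made by the authors with RMA, per the submitters' processing notes, in which arrays are background-corrected and quantile-normalized. No version is given in the sources used here. Of 45101 probe sets 34958 had exactly 1 symbol, and 9012 genes had several. No low values were filtered and 0 columns were left out. Promoters come from RefSeq for GRCm38.p6.

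A group means model over all 6 arrays was fitted with limma 3.58.1 in R 4.3.3 with moderated variances, 2-sided, and genes were called where p adjusted by Benjamini-Hochberg, across every gene tested, was under 0.05. The code was tested on simulated data. The members, lists and rules were chosen with earlier results of these data known. Named genes are the 15 largest differences in each direction among called genes outside all 4 other arrays, the 4 largest between the states, up to 3 members of a list by p, all called members of lists with few, and a panel. Others are said to be chosen afterwards. Not every gene the rule allows is named. Alternatives were a replicate term, a filter on dim genes, other variance models, scalings and probe set rules, a 2-fold minimum, a linear-scale average and leaving out each array, with the lone array of a state then assumed to vary like the others.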

Additional observations from a re-analysis of the deposited data

Results flagged for a closer look

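Of 10143 probe sets with no single symbol in the probe table, which no gene comparison used, 70 were called in iSSC against the midpoint with limma, and in 13 of them both iSSC arrays lay above all 4 others. The brightest excesses were those of probe set 1449525_at (4.37 on the log2 scale), 1421921_at (2.51) and 1438441_at (2.30), whose genes are not named here. Of the 70, 55 were lower, and in 45 both iSSC arrays lay below all others. The largest negative differences were those of probe set 1434280_at (-4.51) and 1423424_at (-4.23), with mSSC means of 11.7 and 11.5 against SSC means of 4.17 and 3.70. With either iSSC array left out 0 of these probe sets were called (521 and 609 at an unadjusted p under 0.05).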

How the results depend on the processing

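All 1222 called genes kept their direction when each array was left out. The count was 0 to 1415 over these fits, and it was 3 with an unmoderated test (3012 genes at an unadjusted p under 0.05), 2208 with 1 variance per group and 334 with the dimmest probe set of each gene. For genes outside all 4 other arrays the leave-one-out range was 0 to 1230, with 3, 1617 and 264 under the same settings. For genes called against each state the range was 0 to 220, with 2 from the unmoderated test, 14 from the mean of probe sets and 0 from the dimmest probe set, where 3027 genes had an unadjusted p under 0.05 against the midpoint. For genes between the states the range was 0 to 155. For probe sets with no single symbol it was 0 to 338. The cause of these changes was not tested. Same-numbered samples deviated together only weakly (r of 0.12 for SSC and iSSC, 0.068 for SSC and mSSC, 0.17 for iSSC and mSSC). The numbers were therefore not taken to pair the samples. Yet the beta-actin and 18S rRNA 3′ minus 5′ signals were higher on replicate 1 than on replicate 2 in each state. What this split reflects was not tested. With a replicate block 1074 genes were called, 72 of them against each state, and 18 probe sets with no single symbol. Median centring gave 407 higher and 704 lower genes, and quantile normalization 415 and 658.

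Values that changed sign were, on the linear-scale average, Aldh1a1 (-0.28), Ctss (-0.71) and Ccl3 (-0.26). Over fits without 1 array Stra8 ran from -2.89 to 1.12, Krt18 from -0.26 to 1.06 and Vim from -0.22 to 0.19. Vim was 0.29 with the mean of probe sets. Of 128 called genes named in the text, 18 lost their call with the replicate block (Zbtb16, Ccnd2, Sohlh1, Skil, Nqo1, Cbr3, Plk2, Cdkn2b, Fosl1, H2-K1, E2f1, Bub1, Ttk, Cdh1, Cxcr4, Cldn4, Tdrkh and Asz1), and 35 lost their call without at least 1 SSC or mSSC array. Only 2 arrays per state limit the precision.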

Other observations

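Gene families were counted by the start of their symbols after the values were seen, as a description with no test. Of 336 measured Zfp zinc finger genes 38 lay below all 4 other arrays and were called, and 4 lay above, against 3.01% and 2.31% of all genes. Of 8 Smc genes, which build ring complexes that organise chromosomes, 3 lay below (Smc1a, Smc3 and Smc5) and 0 above, with a family median of -1.67. Of 8 cullins, the scaffolds of ubiquitin ligases, 4 lay below (Cul2, Cul3, Cul4b and Cul5) and 0 above. Of 37 Cep genes of the centrosome 8 lay below and 1 above. Of 16 Klf genes 4 lay below, among them Klf9 beside the 3 named above. Of 10 Hoxb genes 5 were called higher, with a family median of 1.59, against 2.98% of all genes called higher. Of 10 Hoxa, 7 Hoxc and 9 Hoxd genes 0 were called. With 6.72% of all genes called in either direction, nothing is read from these counts of 0. Of 32 Fbxo genes, which confer specificity on ubiquitin ligases, 4 lay above and 0 below.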
